A study of Homo sapiens with 12 samples.

Results

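Short naive-only stretches are runs of 20 to 90 kb of autosomal DNA that lay in a lamina-associated domain (LAD) of naive cells and in none of primed cells. They were found by cutting chromosomes 1 to 22 into 10 kb windows, joining adjacent windows that lay in naive LADs only, and keeping runs of 20 to 90 kb. There were 2773 of them among 7649 naive-only stretches of any length. By their neighbours they fell into 655 filled gaps, with a LAD of both states directly on either side, 656 edge extensions, with such a shared LAD on 1 side, and 1462 new islands, with none. The stretches were chosen by the LAD calls of both states, so their number, length and neighbours are a description. What the choice did not use, chiefly the genes inside, is what was compared.

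The naive cells were H9 human embryonic stem cells kept in RSeT medium, and the primed cells were H9 cells kept in mTeSR medium. H9 is a single established line, and no treatment was given. LADs were mapped by pA-DamID, in which an antibody against lamin B1 brings protein A fused to the Dam methylase to the lamina, where Dam marks adenine in GATC sites. For each state the labels describe 3 LMNB1-dam libraries and 3 Dam-only libraries, 12 in all, and they do not say whether these came from separate cultures. Each state is represented here by 1 list of LAD intervals with no score and no read number, so sequencing depth is unknown. The spread among the 3 libraries of a state cannot be seen in these lists, and differences between naive and primed are therefore given without a test.

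The nuclear lamina is a meshwork of lamins under the inner nuclear membrane. The DNA that touches it is mostly gene-poor, late replicating and weakly transcribed, and long LADs alternate with interior regions along each chromosome. Contacts that are gained or lost when cells change state often involve single genes or their flanks rather than whole domains.

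As examples, 2 promoters are given for each neighbour class, from 250 bases before to 50 after the gene start (RefSeq, GRCh38.p14). They belong to the 2 longest genes with a RefSeq promoter entry that lay wholly inside a stretch. Only 2.38% of the stretches wholly held a protein-coding gene, so these promoters are not typical of the DNA in them. Capitals mark GATC, the site that Dam methylates, which reads the same on both strands and does not overlap itself. C9orf72 (chr9:27573817-27574116, minus strand) and MRPL44 (chr2:223957213-223957512, plus strand) lay in filled gaps. ENDOD1 (chr11:95089596-95089895, plus strand) and SAMD7 (chr3:169911322-169911621, plus strand) lay in edge extensions. EHF (chr11:34624007-34624306, plus strand) and CYB5A (chr18:74291914-74292213, minus strand) lay in new islands.
C9orf72: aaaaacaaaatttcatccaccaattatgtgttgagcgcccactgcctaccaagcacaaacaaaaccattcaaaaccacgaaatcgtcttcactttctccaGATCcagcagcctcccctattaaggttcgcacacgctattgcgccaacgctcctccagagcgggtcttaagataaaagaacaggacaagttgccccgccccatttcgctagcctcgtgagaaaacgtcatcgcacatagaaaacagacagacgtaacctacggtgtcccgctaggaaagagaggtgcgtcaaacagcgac
MRPL44: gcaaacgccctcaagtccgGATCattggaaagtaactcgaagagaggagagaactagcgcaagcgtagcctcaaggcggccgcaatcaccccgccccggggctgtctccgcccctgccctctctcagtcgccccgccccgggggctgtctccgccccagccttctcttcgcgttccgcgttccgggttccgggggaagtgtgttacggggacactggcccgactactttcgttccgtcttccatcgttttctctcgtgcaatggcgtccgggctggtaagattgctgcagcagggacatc
ENDOD1: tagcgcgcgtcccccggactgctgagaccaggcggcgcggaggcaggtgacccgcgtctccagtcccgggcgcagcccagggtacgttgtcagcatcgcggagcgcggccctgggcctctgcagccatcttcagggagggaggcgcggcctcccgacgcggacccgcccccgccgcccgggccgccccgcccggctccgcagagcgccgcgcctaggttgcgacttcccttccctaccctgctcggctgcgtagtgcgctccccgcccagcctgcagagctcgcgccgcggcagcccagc
SAMD7: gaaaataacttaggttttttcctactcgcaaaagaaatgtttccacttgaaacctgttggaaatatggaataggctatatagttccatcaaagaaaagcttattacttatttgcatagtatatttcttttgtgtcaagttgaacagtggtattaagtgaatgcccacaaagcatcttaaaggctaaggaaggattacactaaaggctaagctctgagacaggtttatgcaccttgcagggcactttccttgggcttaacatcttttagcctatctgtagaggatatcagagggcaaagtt
EHF: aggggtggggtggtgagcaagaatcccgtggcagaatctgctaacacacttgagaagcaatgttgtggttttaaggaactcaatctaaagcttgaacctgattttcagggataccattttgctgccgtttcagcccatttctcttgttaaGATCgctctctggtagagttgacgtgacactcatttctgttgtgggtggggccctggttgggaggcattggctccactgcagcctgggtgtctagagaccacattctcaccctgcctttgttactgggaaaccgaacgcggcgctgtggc
CYB5A: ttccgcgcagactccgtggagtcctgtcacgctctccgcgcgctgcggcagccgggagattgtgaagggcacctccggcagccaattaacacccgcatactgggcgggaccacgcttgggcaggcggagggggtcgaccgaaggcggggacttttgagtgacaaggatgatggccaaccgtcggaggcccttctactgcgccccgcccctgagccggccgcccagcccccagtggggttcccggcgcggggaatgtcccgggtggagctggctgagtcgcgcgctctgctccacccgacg
The entries of MRPL44 and EHF start inside the annotated gene, at a later start than its outermost one. C9orf72, MRPL44 and EHF had 1 GATC each in these 300 bases, and ENDOD1, SAMD7 and CYB5A had 0. Of the 15101 autosomal protein-coding promoters of that length, 39.5% held a GATC. The 6 promoters differed in base composition. ENDOD1 had 41 CpG dinucleotides and 76.7% G and C, whereas SAMD7 had 1 CpG and 37% G and C. C9orf72 had 18 CpG, MRPL44 28, EHF 8 and CYB5A 32.

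Short stretches made up 92.4 Mb, or 49.4% of all naive-only DNA, and were mostly near the lower length limit. Of the 2773, 1316 (47.5%) were 20 kb long, and the median was 30 kb (quartiles 20 and 40 kb). Just outside the limits there were 4621 stretches of 10 kb and 31 of 100 kb, and just inside there were 1316 of 20 kb and 58 of 90 kb. Naive-only windows of all lengths were 6.51% of the 287391 autosomal windows, and primed-only windows were 2.26%. Filled gaps covered 20.5 Mb with a median length of 20 kb, edge extensions 23.1 Mb with a median of 30 kb, and new islands 48.8 Mb with a median of 30 kb.

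New islands were the most frequent class at each length from 20 to 90 kb in the lists as deposited. When LADs under 50 kb apart were merged first, there were 311 new islands, 355 edge extensions and 290 filled gaps. In the lists as deposited, new islands made up 51.9% of the 20 kb stretches and 41.4% of the 90 kb stretches. Filled gaps made up 26.5% of the 20 kb stretches and 24.1% of the 90 kb stretches, and edge extensions 21.6% and 34.5%. The mirror image, primed-only stretches of 20 to 90 kb, numbered 911 and had another make-up. New islands were 52.7% of the naive-only stretches, against 25.6% of the primed-only ones, and filled gaps were 23.6% of the naive-only stretches, against 46.4% of the primed-only ones. Edge extensions were 23.7% and 28.0%.

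**Figure D1:**
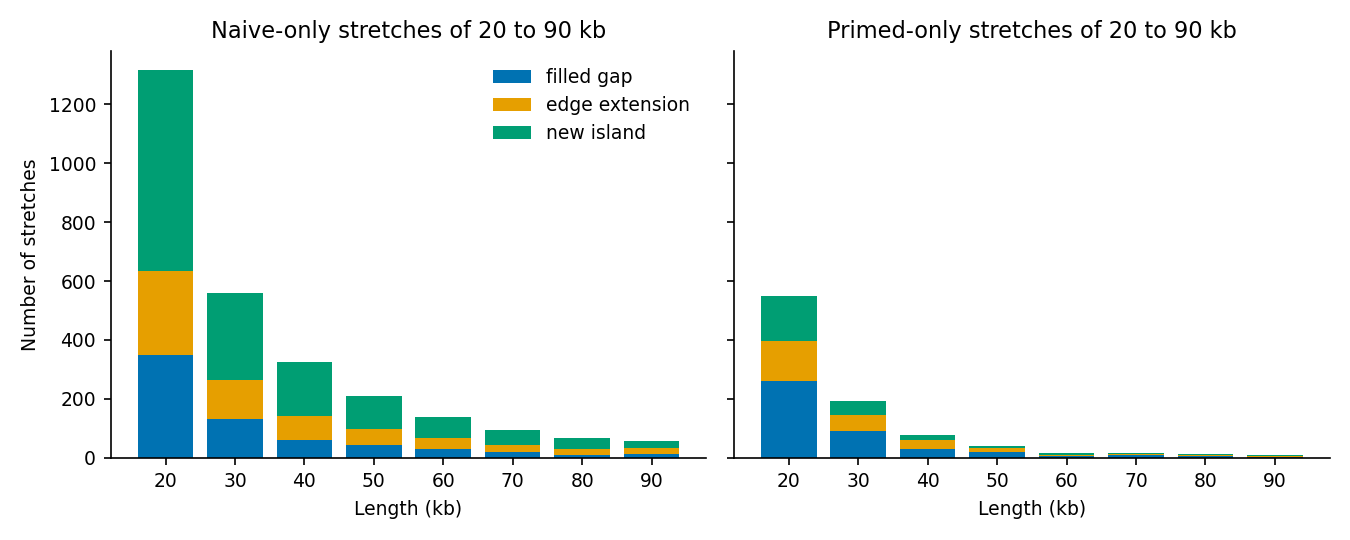
Number of stretches (vertical axis) by length in kb (horizontal axis) for naive-only stretches (left) and primed-only stretches (right), with colours for the 3 neighbour classes. There were 1316 naive-only and 550 primed-only stretches of 20 kb, and new islands are the largest part of each naive-only bar.

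The neighbour that was not a shared LAD was usually DNA in neither list. Of the edge extensions, 544 (82.9%) ended in such DNA on the far side and 112 ended against a primed-only window, where the naive LAD stopped at the point where a primed-only run began. Of the new islands, 1348 (92.2%) had DNA of neither list on both sides, 106 touched a primed-only window on 1 side and 8 on both. Each of the 1462 new islands was therefore a whole naive LAD. These were 48.0% of the 3043 naive LADs of 20 to 90 kb. In the primed list, 233 of 1803 LADs of that size (12.9%) had no naive base.

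Most filled gaps lay between small primed LADs. In 465 of the 655 filled gaps (71.0%), the shorter of both flanking primed LADs was a single 10 kb window, and the median of the longer one was 30 kb. Single windows were 45.9% of all 5268 autosomal primed LADs. That share counts each LAD alone, whereas the 71.0% takes the shorter LAD of each flanking pair. The shorter of a pair is a single window more often than any 1 LAD. The shares are therefore not comparable, and whether single windows were in excess beside filled gaps was not tested. Both flanking primed LADs were 100 kb or longer at 14 filled gaps, and at 28 the longer one reached 1 Mb. The filled gaps linked 1122 primed LADs into 352 naive LADs, of which 129 held more than 1 filled gap. The naive LAD with most short stretches lay on chromosome 7 (36490001 to 39010000, hg38), where 13 filled gaps and 1 edge extension fell within 2520 kb. Next came a LAD of 3940 kb on chromosome 1 (183650001 to 187590000) with 11 filled gaps and 1 edge extension. Edge extensions likewise started mostly from small LADs: in 385 of 656 (58.7%) the primed LAD that was extended was a single window, and in 21 it was 1 Mb or longer. The naive LAD around an edge extension had a median length of 120 kb, and around a filled gap 440 kb.

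Set against the gaps that could have been filled, naive LADs covered a larger share of short primed gaps than primed LADs did of short naive gaps. Both shares come from the same 2 lists that defined the stretches, so they are a description and not support for a difference between states. Naive-only windows were 6.51% of autosomal windows and primed-only windows 2.26%, and the shares are not adjusted for this. Of the 2003 autosomal gaps of 20 to 90 kb between neighbouring primed LADs, 775 lay wholly in naive LADs (38.7%, exact binomial 95% interval 36.6 to 40.9), 683 partly and 545 not at all. Of the 775, 655 touched shared LADs on both sides and are the filled gaps above, and the other 120 touched a primed-only window. Of the 3082 naive gaps of the same lengths, 488 lay wholly in primed LADs (15.8%, 14.6 to 17.2) and 1979 not at all. The share was lower for longer gaps, though not at every step. It was 51.8% of the 20 kb primed gaps, 25.9% of the 50 kb gaps and 20.9% of the 90 kb gaps, against 23.7%, 8.43% and 5.68% of the naive gaps. Gaps of 100 to 200 kb were closed in 6.01% of 283 primed and 2.09% of 431 naive cases. The intervals of both overlapped at 80 and 90 kb and at 100 to 200 kb. Intervals of shares here and below take each gap, stretch or promoter as independent, which neighbours are not, and they do not cover replicate error.

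**Figure D2:**
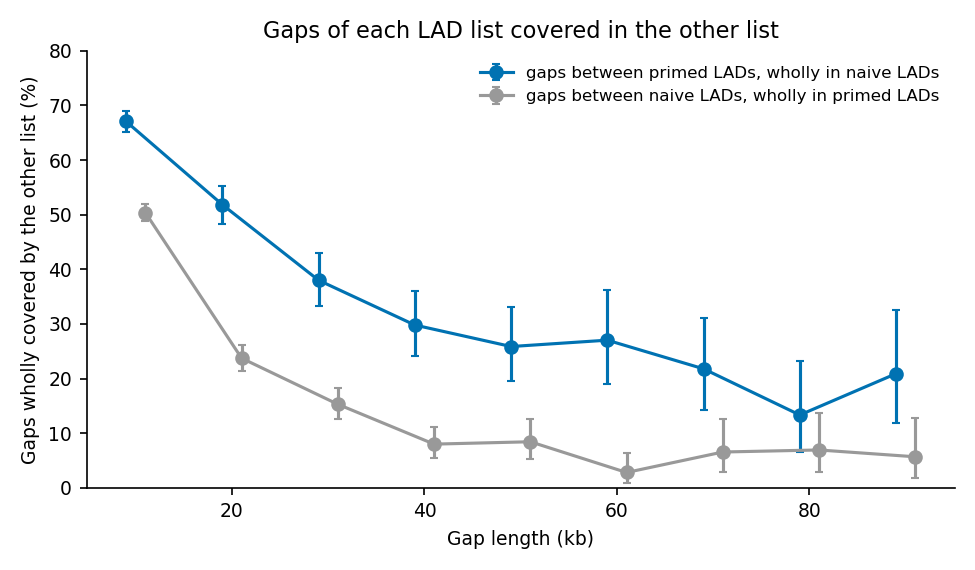
Share of gaps wholly covered by the other list (vertical axis, percent) by gap length in kb (horizontal axis), with exact binomial 95% intervals as bars. Gaps between primed LADs (blue) ran from 67.1% covered at 10 kb to 20.9% at 90 kb, and gaps between naive LADs (grey) from 50.4% to 5.68%.

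Of the short naive-only stretches 53.1% overlapped a protein-coding gene (51.2 to 54.95), but few held a gene start. The share that overlapped a gene was 50.7% of filled gaps (46.8 to 54.6), 54.4% of edge extensions (50.5 to 58.3) and 53.6% of new islands (51.0 to 56.1), so the intervals of the 3 classes overlapped. Gene starts were taken from the RefSeq promoter entries, which were used for 15101 of 18991 autosomal protein-coding genes and for none on chromosome 8, so chromosome 8 is left out of values on starts. A gene start lay in 49 of 621 filled gaps (7.89%, 5.89 to 10.3), in 62 of 621 edge extensions (9.98%, 7.74 to 12.6) and in 100 of 1368 new islands (7.31%, 5.99 to 8.82). Stretches wholly inside the body of 1 gene, with no start, were 34.8%, 33.7% and 37.6% of the 3 classes. Those with no protein-coding gene were 49.8%, 45.9% and 45.9%. Only 15 of 2610 stretches held more than 1 start.

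Longer stretches held starts more often, and the intervals of the 3 classes overlapped within each length. Of stretches of 20 kb, 5.41% of filled gaps, 8.24% of edge extensions and 4.53% of new islands held a start. At 50 to 90 kb the shares were 15.4%, 15.3% and 12.1%. Primed-only stretches of the same lengths held starts more often. At 20 kb the share was 5.56% in naive-only stretches (4.35 to 6.99) and 14.2% in primed-only stretches (11.3 to 17.5). At 50 to 90 kb it was 13.6% (10.8 to 16.8) and 30.7% (21.3 to 41.4).

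Counted per Mb, short naive-only stretches lay nearer to shared LADs in gene starts than to DNA outside both lists. They held 2.60 protein-coding starts per Mb (exact Poisson 95% interval of the count 2.28 to 2.97), with 2.64 in filled gaps (1.97 to 3.47), 3.14 in edge extensions (2.45 to 3.98) and 2.33 in new islands (1.91 to 2.81). Without LADs under 50 kb the values were 4.46 (2.91 to 6.53), 4.22 (3.22 to 5.43) and 2.25 (1.73 to 2.87), and the interval of new islands then lay below the other two. Naive-only single windows held 3.51 per Mb and naive-only stretches of 100 kb or longer 1.84. Short primed-only stretches held 7.15 per Mb (6.11 to 8.30), shared windows 1.995 and windows in neither list 8.62. When LADs under 50 kb apart were merged, the short naive-only and short primed-only values were 4.42 and 6.95 per Mb.

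Coverage by gene bodies gave another order. A protein-coding gene body overlapped 47.9% of the windows in short naive-only stretches, with 45.7% in filled gaps, 48.3% in edge extensions and 48.6% in new islands. The share was 59.1% in short primed-only stretches, 35.2% in shared windows and 54.7% in windows of neither list. The 894 genes that overlapped a short naive-only stretch had a median length of 107 kb, against 24.8 kb for all autosomal protein-coding genes. A long gene is more likely to overlap any stretch than a short one. In filled gaps the median was 182 kb, in edge extensions 118 kb and in new islands 117 kb. Genes of long non-coding RNAs followed neither order: their midpoints numbered 7.11 per Mb in short naive-only stretches (6.88 in filled gaps, 7.01 in edge extensions and 7.26 in new islands), 4.85 in short primed-only stretches, 4.56 in shared windows and 7.30 in windows of neither list. Midpoints of protein-coding genes numbered 3.79 per Mb in short naive-only stretches, against 6.96 in short primed-only stretches, 2.45 in shared windows and 10.4 in windows of neither list. By class they numbered 2.78 in filled gaps (2.11 to 3.6), 4.20 in edge extensions (3.41 to 5.12) and 4.02 in new islands (3.48 to 4.62), so that filled gaps were lowest, whereas by starts new islands were. Pseudogenes stood at 4.94 per Mb in short naive-only stretches, 3.59 in shared windows and 6.88 in windows of neither list. The stretches held 37 miRNA genes, 26 in new islands, 7 in edge extensions and 4 in filled gaps, or 0.401 per Mb, against 0.238 in shared windows and 0.978 in windows of neither list. Of 16 tRNA genes in the stretches, 14 lay in new islands, 2 in filled gaps and 0 in edge extensions. That was 0.173 per Mb in all short naive-only stretches and 0.287 in new islands, against 0.156 in short primed-only stretches, 0.0051 in shared windows and 0.273 in windows of neither list. New islands among the short primed-only stretches held more, 0.654 per Mb, from 4 genes.

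**Figure D3:**
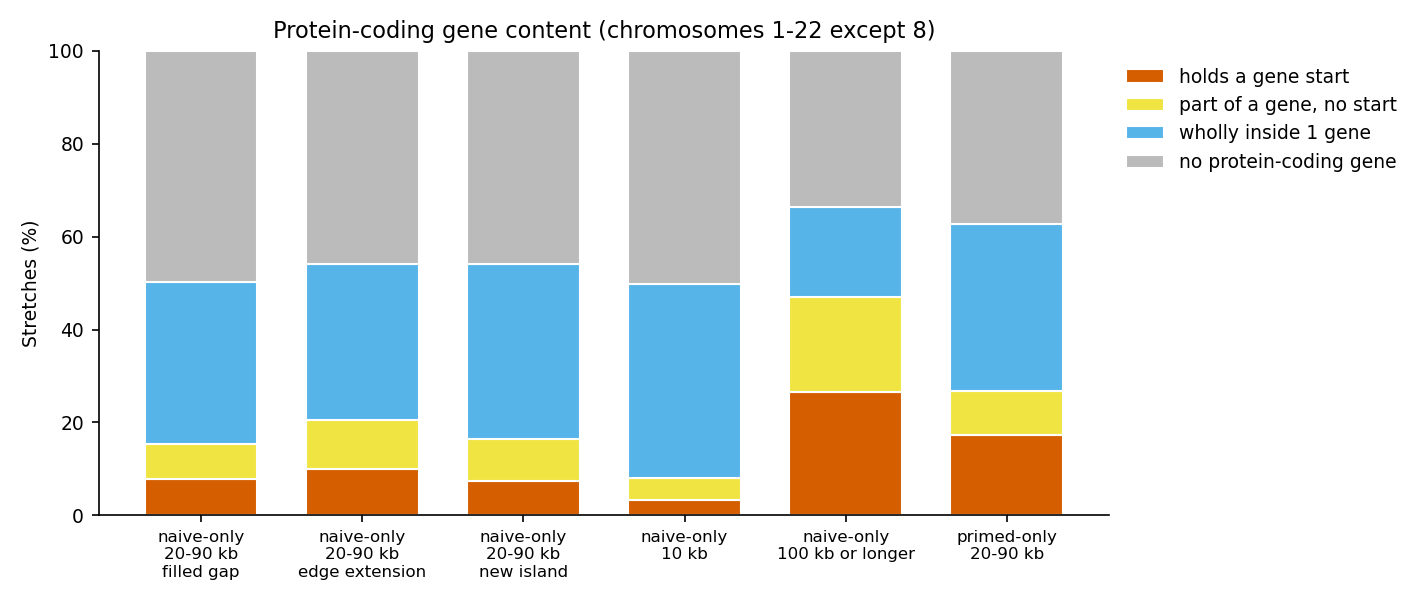
Share of stretches (vertical axis, percent) by protein-coding gene content for the 3 classes of short naive-only stretches, for naive-only stretches of other lengths and for primed-only stretches of 20 to 90 kb, without chromosome 8. Starts lay in 7.89%, 9.98% and 7.31% of the 3 classes and in 17.2% of the primed-only stretches.

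Promoters in new islands were less often CpG-rich than those in the other classes, with intervals that overlapped. A promoter was counted as CpG-rich when its 300 bases had at least 50% G and C and a ratio of observed to expected CpG of at least 0.6. In new islands 36 of 106 promoters were CpG-rich (34.0%, 25.04 to 43.8), in edge extensions 36 of 69 (52.2%, 39.8 to 64.4) and in filled gaps 28 of 51 (54.9%, 40.3 to 68.9). Of promoters in short primed-only stretches 70.6% were CpG-rich (63.1 to 77.3), of those in shared windows 45.7% and of those in windows of neither list 67.6%. CpG-rich promoters are typical of genes used in most tissues, and CpG-poor ones of tissue-specific genes. The EHF promoter printed above, with an observed to expected ratio of 0.41, was among the CpG-poor ones in new islands, and that of CYB5A, with 0.88, among the CpG-rich ones. A GATC site was present in 47.1% of promoters in filled gaps (32.9 to 61.5), 30.4% in edge extensions (19.9 to 42.7) and 39.6% in new islands (30.3 to 49.6).

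Gene starts lay more often just beyond the naive border of edge extensions than just beyond the primed border. By construction, DNA just beyond the primed border is naive-only, and DNA just beyond the naive border is outside naive LADs. Edge extensions held 3.14 starts per Mb and windows of neither list 8.62, so the contrast has the direction of these densities and does not show a trait of the borders. A start lay within 20 kb beyond the outer, naive border in 110 of 621 edge extensions (17.7%, 14.8 to 20.9), and within the first 20 kb beyond the inner, primed border, which lies in the extension itself, in 43 of 621 (6.92%, 5.06 to 9.21). At the 1560 borders common to both lists the share was 17.1% (15.2 to 19.0), and at the borders of new islands 8.48% (7.46 to 9.59). Of the 120 starts beyond outer borders, 76 (63.3%, 54.1 to 71.9) pointed away from the LAD. At common borders 51.4% of 317 starts did (45.8 to 57.0), with an interval that overlapped. Beyond inner borders 28 of 46 did (60.9%, 45.4 to 74.9). Beyond the outer borders of primed-only edge extensions 22 of 39 did (56.4%, 39.6 to 72.2). A start lay within 20 kb beyond 13.5% of those 237 primed-only borders (9.42 to 18.5). Inside the extensions 39 of 69 starts pointed away from the shared LAD (56.5%, 44.0 to 68.4), and 33 of 69 lay nearer to the outer border.

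New islands spread far from the LADs that both states had in common. The median distance to the nearest shared window was 290 kb (quartiles 70 and 1188 kb), and 422 islands (28.9%) lay 1 Mb or farther away. For the 233 primed-only islands of 20 to 90 kb the median was 60 kb, and 21 (9.01%) lay 1 Mb or farther away. Gene density inside the islands was lower at each step of distance, in primed-only islands as well. From the nearest to the farthest group, primed-only islands held 8.72, 6.22, 5.97 and 1.85 protein-coding midpoints per Mb. Their starts per Mb were 7.04, 3.78, 1.54 and 0, with 116, 70, 26 and 21 islands per group. The 302 naive-only islands 10 to 50 kb from a shared window held 6.65 protein-coding midpoints per Mb and 4.41 starts per Mb. Those at 60 to 190 kb held 5.47 midpoints and 2.86 starts, those at 200 to 990 kb 2.96 and 1.74, and the 422 islands at 1 Mb or more held 2.26 midpoints and 1.24 starts per Mb. The share overlapping a gene did not follow each step: from the nearest to the farthest group it was 60.6% (54.8 to 66.1), 62.8% (57.2 to 68.2), 48.4% (43.5 to 53.2) and 46.9% (42.1 to 51.8). The 5 most distant islands lay on chromosome 16 between 6390001 and 7260000, each 20 or 30 kb long and 51530 to 52380 kb from the nearest shared window. They fell within RBFOX1, a gene of a neuronal splicing factor (5239721 to 7713340).

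**Figure D4:**
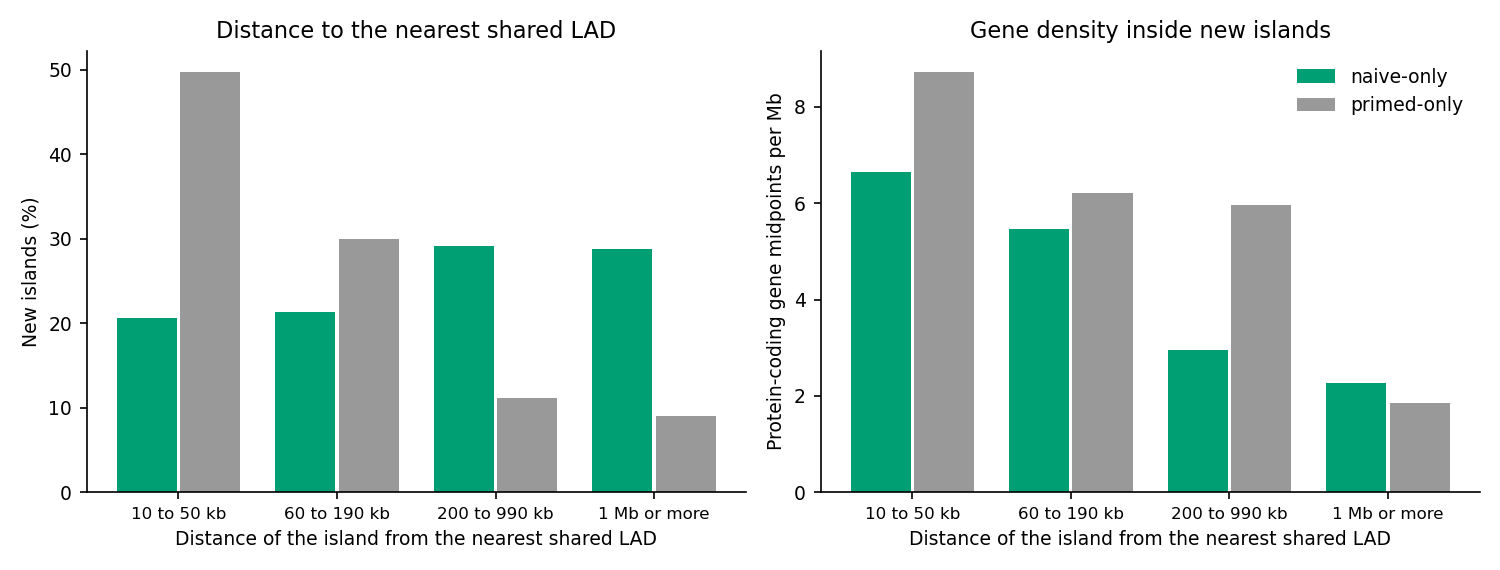
New islands of 20 to 90 kb by distance from the nearest shared LAD (horizontal axis), as the share of islands in percent (left) and as protein-coding gene midpoints per Mb inside them (right), for naive-only and primed-only islands. Of the naive-only islands 28.9% lay at 1 Mb or more, where they held 2.26 midpoints per Mb.

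The stretches were unevenly spread over the chromosomes. Chromosome 10 had the highest density, 162 per 100 Mb, followed by chromosome 18 with 141 and chromosome 5 with 134. Chromosomes 19 and 22, with 0.0853% and 0.0591% of their length in naive LADs, held 0. Chromosome 4 had 52.1 per 100 Mb although 72.3% of it lay in naive and 73.2% in primed LADs. New islands were 33.1% of the 136 stretches on chromosome 7 and 72.2% of the 54 on chromosome 17. Over the 19 chromosomes with at least 20 stretches, the share of new islands and the primed LAD coverage had a Pearson r of -0.29 and a Spearman rho of -0.20, a weak relation over points that come from the same 2 lists. Of 587 blocks of 5 Mb, 338 held at least 1 stretch, with a median of 6. The fullest block, on chromosome 10 (125000001 to 130000000), held 37 stretches, all of them new islands. On chromosome 13 the blocks from 30000001 to 35000000 and from 40000001 to 45000000 held 31 each, 19 and 26 of them new islands.

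Very long genes held many stretches in series. Of the 894 genes overlapped, 319 held 2 or more and 46 held 5 or more. Those 46 had a median length of 585 kb. The genes of this paragraph were chosen after their values were seen. FHIT (chromosome 3, 59747277 to 61251452), a diadenosine triphosphate hydrolase gene at a common fragile site, overlapped 17 stretches, with 11 filled gaps, 3 edge extensions and 3 new islands. Naive LADs covered 82.4% of it and primed LADs 42.7%. CDH13 (chromosome 16, 82626969 to 83800640), the gene of T-cadherin, overlapped 14, with coverage of 75.2% by naive and 26.4% by primed LADs. LRMDA (chromosome 10), a gene of melanocyte differentiation, overlapped 13, of which 10 were new islands. SMYD3 (chromosome 1, 245749347 to 246507279), a lysine methyltransferase gene, overlapped 12, all new islands, and lay at 62.1% in naive and 0% in primed LADs. TENM3, a teneurin gene of neuronal wiring on chromosome 4, overlapped 11, with 7 new islands. EXOC4, an exocyst subunit gene on chromosome 7, overlapped 10, likewise with 7 new islands. The receptor tyrosine kinase gene ALK on chromosome 2 overlapped 8, all new islands, with 46.7% coverage in naive and 0% in primed. NPAS3 on chromosome 14, which encodes a neuronal transcription factor, overlapped 3 filled gaps and 6 edge extensions but 0 new islands.

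**Figure D5:**
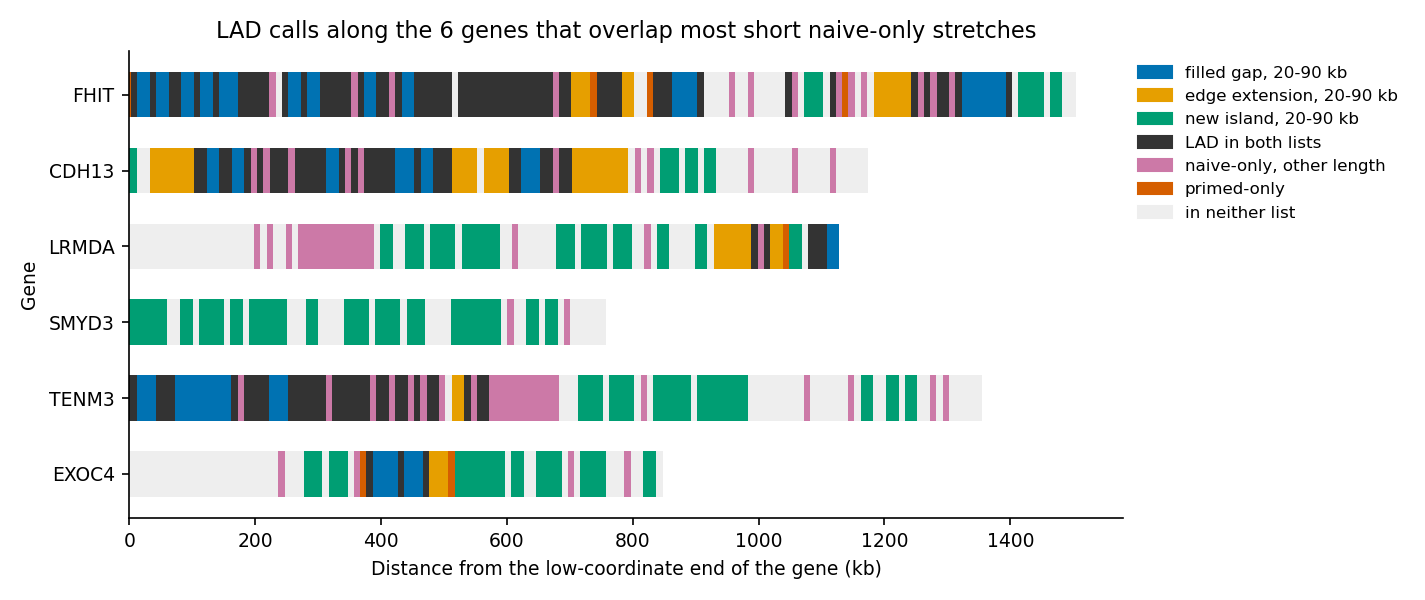
LAD calls along the 6 genes that overlap most short naive-only stretches, as distance in kb from the low-coordinate end of each gene (horizontal axis), with colours for stretch class and LAD state. SMYD3 holds 12 new islands and no LAD of the primed list, while in FHIT 11 filled gaps alternate with shared LADs.

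Few genes lay wholly inside a stretch, 73 in all, with a median length of 8.14 kb. Wholly inside means covered by 1 stretch, in naive LADs, and not at all by primed LADs. In filled gaps these were 12 genes. The longest was C9orf72 (chromosome 9, 27546546 to 27573866), which acts in endosomal traffic and autophagy, in a stretch of 50 kb from 27530001 to 27580000. MTERF3 and UQCRB shared a stretch of 90 kb on chromosome 8 (96220001 to 96310000). They encode a regulator of mitochondrial transcription and a subunit of respiratory complex III. MRPL44 (chromosome 2, 223950854 to 223967714), a mitochondrial ribosomal protein gene, filled most of a 30 kb stretch. The others among the 8 longest were PTGDR, a prostaglandin D2 receptor gene on chromosome 14, LOC105379198 on chromosome 5, ENPP5 on chromosome 6 and the autophagy gene MAP1LC3C on chromosome 1.

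Edge extensions held 30 whole genes. ENDOD1 (chromosome 11, 95089846 to 95132645) lay in a stretch of 80 kb from 95070001 to 95150000. SAMD7 (chromosome 3, 169911572 to 169939175), a photoreceptor regulator, lay in a stretch of 60 kb. LRRC52 on chromosome 1 encodes an auxiliary subunit of potassium channels. MED21 on chromosome 12 encodes a Mediator subunit, and ARL1, also on chromosome 12, a small GTPase of the Golgi. PPIC on chromosome 5 encodes a cyclophilin, SNRPB2 on chromosome 20 a protein of the U2 snRNP, and OR2A1 on chromosome 7 an olfactory receptor. OR2A1 belongs to a cluster with near-identical copies, and how the authors treated reads from such copies is unknown, so its call is uncertain.

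New islands held 31 whole genes. EHF (chromosome 11, 34621093 to 34663288), an epithelial ETS factor gene, lay in an island of 90 kb from 34590001 to 34680000. CYB5A (chromosome 18, 74250846 to 74291963), which encodes cytochrome b5, lay in one of 50 kb. RSAD2 and CMPK2, neighbouring interferon-induced genes on chromosome 2, lay in 1 island of 90 kb (6840001 to 6930000), which also reached into RNF144A. KCNJ5, the gene of an inward rectifier potassium channel, lay with the start of TP53AIP1 in an island of 60 kb on chromosome 11 (128890001 to 128950000). GPR83 on chromosome 11, HDC on chromosome 15, which encodes histidine decarboxylase, and TRIM42 on chromosome 3 completed the 8 longest. Counts of starts cover only genes with a promoter entry and leave out chromosome 8, so the stretch of MTERF3 and UQCRB is not counted. Among the starts counted, no stretch held more than 2. In filled gaps 2 stretches held that many, with WDFY1 with MRPL44 on chromosome 2 and TLCD4 with the read-through gene TLCD4-RWDD3 on chromosome 1, which overlap, so that both starts belong to 1 locus. The next filled gap by length with a start held that of AP1S3, an adaptor protein gene, in 90 kb on chromosome 2. Of the 7 edge extensions with 2 starts, the 3 longest held ASTE1 with NEK11 on chromosome 3, SNRPB2 with OTOR on chromosome 20 and USP33 with MIGA1 on chromosome 1. Of the 6 new islands with 2 starts, the 3 longest were those of RSAD2 with CMPK2, of KCNJ5 with TP53AIP1 and of MS4A7 with MS4A14, membrane protein genes of the MS4A cluster on chromosome 11.

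Of 18991 autosomal protein-coding genes, 387 (2.04%) had their start or at least 50% of their body in short naive-only stretches. For comparison, 660 genes (3.48%) had at least 50% of their body in naive LADs and less in primed LADs, and 356 (1.87%) the reverse. Of these 660, 286 had at least 50% of their body in short stretches alone. Over 11 lists of genes of pluripotency, early development and nuclear structure, 10 of 305 autosomal members met the criterion of start or body (3.28%). The trophoblast list had 4 of 29 (13.8%) and the germline list 3 of 33 (9.09%), against 2.04% of all genes. By body, with at least 50% in LADs of 1 state and under 50% in the other, members also went the other way. The trophoblast list had 3 genes in naive and not primed LADs and 2 the reverse, and the germline list 3 and 1. The lists of naive pluripotency (24 members), primed pluripotency (24) and the 8-cell embryo (43) had 1 each. By body, these 3 lists had 0, 4 and 1 genes in naive and not primed LADs, and 4, 2 and 1 the reverse. Over all lists there were 12 genes each way. Core pluripotency genes (17), neuroectoderm (27) and mesendoderm regulators (28), Polycomb subunits (33), nucleolar factors (32) and lamina and envelope genes (26) had 0. Each count of a single list rests on at most 4 genes, and no list was tested against the other genes.

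Of the 4 trophoblast genes, 3 met the criterion through new islands and TFAP2B through an edge extension. CYP19A1, the aromatase gene (chromosome 15, 51208057 to 51338596), had 1 island of 40 kb inside its body and another of 30 kb (51300001 to 51330000) over its start. ERVW-1, the syncytin-1 gene on chromosome 7, had its start and 83.1% of its body in an island of 20 kb (92470001 to 92490000). As a retroviral envelope gene it has related copies, which makes its call uncertain for the reason given above. ELF5, an ETS factor gene of the trophoblast on chromosome 11, had its start in an island of 70 kb (34510001 to 34580000) but only 10.8% of its body. TFAP2B on chromosome 6 had 60.2% of its body in an edge extension of 20 kb. Among germline genes, PIWIL4, a piRNA pathway gene on chromosome 11, had 78.9% of its body in an island of 70 kb. STRA8, a regulator of entry into meiosis on chromosome 7, had 69.8% in an island of 20 kb, and TDRD5 on chromosome 1 had its start in another of 20 kb.

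Both pluripotency genes met the criterion through filled gaps, NR5A2 by its start alone. NR5A2, a nuclear receptor gene of naive pluripotency (chromosome 1, 200027710 to 200177415), had its start in a filled gap of 40 kb (200020001 to 200060000), and naive LADs covered 93.3% of its body, primed LADs 58.4% and the filled gap 21.6%. The gene of the ERK phosphatase DUSP6 lay in a filled gap of 20 kb on chromosome 12 (89340001 to 89360000), so that its call rests on 2 windows. Of the 8-cell genes, the histone demethylase gene KDM4E lay in an edge extension of 60 kb on chromosome 11 (95000001 to 95060000), separated from that of ENDOD1 by a single window.

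By gene family, counts stayed small. Of 369 solute carriers 10 met the same criterion (2.71%), against 2.04% of all genes. So did 1 of 498 ZNF genes (0.20%), 4 of 388 olfactory receptors (1.03%), 3 of 55 cytochromes P450 (5.45%) and 3 of 75 TRIM genes (4%). By body, 13 olfactory receptors lay at least 50% in naive LADs and under 50% in primed LADs, and 45 the reverse. HOX genes (39), keratins (55), ribosomal protein genes (76), clustered and other protocadherins (63), GABA-A receptors (16), cadherins (23), serpins (33), ADAM and ADAMTS genes (39) and glutamate receptors (26) had 0. At a share of 2.04%, families of these sizes hold few such genes or none, so 0 is not a result about them. SLC1A3, a glutamate transporter gene on chromosome 5, had its start in a filled gap of 60 kb and a further part in an edge extension of 90 kb, so that 100% lay in naive and 10.9% in primed LADs. SLC38A4, an amino acid transporter gene on chromosome 12, had 85.2% of its body in 2 new islands, and SLC24A3, an ion exchanger gene on chromosome 20, had 54.4% in 5. CYP1B1 on chromosome 2 lay wholly in a new island of 80 kb, and the vitamin D 25-hydroxylase gene CYP2R1 on chromosome 11 had 82.9% of its body in a filled gap of 20 kb.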

How the data were processed

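LADs were mapped by pA-DamID in naive and primed H9 cells. The deposited files are 1 list of LAD intervals per state, as start and end coordinates on a 10 kb grid, with no other unit. Per the submitters' processing notes, BWA, SAMtools 1.10, SICER and hg38 were used. Steps, thresholds and any pooling of replicates are unstated there. The labels name final lists, whereas the lists analysed are called simple.

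Windows in naive LADs only were joined into stretches and sorted by their direct neighbours. RefSeq (GRCh38.p14, whose primary chromosomes are those of hg38) gave 18991 autosomal protein-coding genes, scaffold entries left out. Gene starts were read from promoter entries. Coordinates are 1-based. Intervals are exact binomial (Clopper-Pearson) or Poisson, at 95%. The members and gene lists were chosen with earlier results of these data known. Named genes are, per class, the 8 longest genes wholly inside a stretch, the genes of the 3 stretches with most starts, and up to 5 members per list. Family members were picked after their values were seen. The functions were tested on simulated data. Tools were pandas 2.3.3 and numpy 2.4.6 under Python 3.11.15, SciPy 1.17.1 for intervals, and matplotlib 3.10.9 for figures.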

Additional observations from a re-analysis of the deposited data

How the results depend on the processing

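Of 92 values under 11 alternatives, 52 stayed within the interval of the reported value or within 1.5 times the reported count, and 40 moved. Some of the 40 come from alternatives that replaced the measure itself, with starts for overlap, all annotated genes or midpoints. Those were set against the interval of another quantity, so the number that moved does not measure dependence on processing alone. With stretches of 20 to 50 kb, with 10 kb of slack in what counts as touching, and with X added, none moved. With stretches of 30 to 90 kb the counts were 1457 in all, 306 filled gaps, 372 edge extensions and 779 new islands, by construction. The lists themselves mattered most. Without LADs under 50 kb there were 971 stretches, with 138 filled gaps, 354 edge extensions and 479 new islands. They overlapped a protein-coding gene in 65.2%, 62.4% and 57% of cases, and starts per Mb were 4.46 in filled gaps (2.91 to 6.53), 4.22 in edge extensions (3.22 to 5.43) and 2.25 in new islands (1.73 to 2.87), so that the interval of new islands no longer overlapped the others. Without single-window LADs there were 354 filled gaps, of which 57.6% overlapped a gene with 3.54 starts per Mb, and 41.8% of the primed gaps were closed. With LADs less than 50 kb apart joined there were 956 stretches, with 290 filled gaps, 355 edge extensions and 311 new islands, so that new islands were no longer the most frequent class. Of the primed gaps 57.4% were then closed, 61.4% of filled gaps and 56.3% of new islands overlapped a gene, and starts per Mb were 5.04 in filled gaps, 4.95 in edge extensions and 3.08 in new islands. Why the values moved was not tested.

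The difference in starts between short naive-only and short primed-only stretches, examined with alternatives chosen after seeing the data, kept its direction: 3.09 and 6.30 per Mb without LADs under 50 kb, 2.80 and 6.74 without single windows, and 4.42 and 6.95 when joined. Counting a start in place of any overlap gave 7.89%, 9.98% and 7.31% of filled gaps, edge extensions and new islands, and counting overlap with all annotated genes gave 76.5%, 80.6% and 81%. Starts of all annotated genes numbered 7.19, 7.79 and 7.03 per Mb, and midpoints of protein-coding genes 2.78 in filled gaps, 4.2 in edge extensions and 4.02 in new islands, so that filled gaps and not new islands were lowest. No paired analysis was possible because each state has 1 list in which replicates are not kept apart, so leaving out a replicate or raising the calling threshold could not be run either. A window with too few usable reads or GATC sites looks the same in these lists as one off the lamina.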
